A study of Homo sapiens with 9 samples.

Results

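The genes followed here are 10 parts of the transforming growth factor beta (TGF-beta) pathway: the ligands TGFB1, TGFB2 and TGFB3, the receptors TGFBR1 and TGFBR2, the signal carriers SMAD2, SMAD3 and SMAD4, and the inhibitors SMAD7 and SKIL. They were taken by gene symbol from the deposited count table, and 10 of 10 were found among its 25886 symbols and passed the filter on low counts. The cells are labelled HT29, an established line from a human colorectal adenocarcinoma. The groups, of 3 libraries each, are DNMT1 knockdown, DNMT3B knockdown and Control, and all 9 libraries are labelled as puromycin selected. The knockdowns were stable and made with lentiviruses, and the labels do not name the hairpin sequences. They also do not say how many hairpins or selected cell populations stand behind each group. Effects of a hairpin or of a selected population therefore cannot be told apart from loss of DNMT1 or DNMT3B. In the deposited counts the Control columns are headed shCTR, a control hairpin construct whose target, if any, is not named. DNMT1 copies DNA methylation onto the new strand after replication, and DNMT3B adds methylation at new sites. Each was depleted to ask what a drop in these enzymes, which proteasome inhibitors bring about, does to the transcriptome.

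TGF-beta ligands are secreted in a latent form, and once freed they bring together the type II receptor TGFBR2 and the type I receptor TGFBR1. The activated type I receptor phosphorylates SMAD2 and SMAD3, which bind SMAD4 and act on target genes in the nucleus. SMAD7 blocks the activated receptor and SKIL represses SMAD complexes on DNA, and both genes are themselves known targets of the pathway, forming negative feedback. In normal colon epithelium the pathway restrains growth, and colorectal tumours often lose parts of it. The HT29 line is known to carry a truncating mutation of SMAD4, which counts per gene cannot show.

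The members were chosen by name with their fold changes in these same comparisons already known, so their values are given as a description without p-values. Tests are given for other pathway genes and genes near TGFB2, except named genes that passed the low-count filter only through groups where they were higher. Whether the 3 libraries of a group came from separate cultures is not labelled, so p-values here rest on a spread among libraries that may be only technical. Both knockdowns were compared with the same 3 Control libraries. These are bulk samples, in which fewer cells expressing a gene and less RNA per cell cannot be told apart. Levels are in CPM, counts scaled to a common library size with TMM factors, and ± after a mean is the SD over 3 libraries.

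Libraries held 23421179 to 24168025 counts with DNMT1 knockdown, 18772187 to 25955343 with DNMT3B knockdown and 26923932 to 33666224 in Control. DNMT1 mRNA stood at 55.0% of Control in its own knockdown and DNMT3B mRNA at 49.7% in its own. DNMT3A, the other de novo methyltransferase, fell with DNMT3B knockdown to 24.7 ± 1.56 CPM, against 36.0 ± 1.02 CPM in Control (edgeR adjusted p = 4.07e-10), and had 37.3 ± 1.03 CPM with DNMT1 knockdown (adjusted p = 0.432). Of 13 colorectal epithelial markers, EPCAM, CDH1, KRT8, KRT18, KRT19, KRT20 and CDX2 were above 1 CPM in every group, while VIL1, CDX1, LGALS4, CDH17, GPA33 and CEACAM5 were below 1 CPM in every group. CEACAM5 had 0 counts with DNMT1 knockdown, 2 with DNMT3B knockdown and 0 in Control. The label HT29 is used as given, with 6 of its 13 listed markers near or at 0. Summed fibroblast markers were 29.5 to 34.1 CPM with DNMT1 knockdown, 39.3 to 41.8 with DNMT3B knockdown and 25.8 to 30.5 in Control, almost all of it COL1A1, ACTA2 and THY1, with COL1A2 and DCN at 0 counts in all libraries.

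The start regions of TGFB2, the member with the largest positive fold change against Control, and of SMAD7, the one with the largest negative fold change, are shown because CpG dinucleotides, in capitals here, are the sites that DNMT1 and DNMT3B methylate. Each window runs from 250 bases before to 50 bases after the gene start in RefSeq (GRCh38.p14), at chr1:218345086-218345385 on the plus strand for TGFB2 and chr18:48950916-48951215 on the minus strand for SMAD7.
TGFB2: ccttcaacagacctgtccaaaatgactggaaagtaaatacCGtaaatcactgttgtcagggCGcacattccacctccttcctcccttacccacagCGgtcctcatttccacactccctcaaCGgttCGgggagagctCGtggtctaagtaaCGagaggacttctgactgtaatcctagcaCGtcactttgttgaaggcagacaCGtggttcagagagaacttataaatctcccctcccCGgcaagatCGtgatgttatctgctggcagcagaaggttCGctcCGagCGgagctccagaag
SMAD7: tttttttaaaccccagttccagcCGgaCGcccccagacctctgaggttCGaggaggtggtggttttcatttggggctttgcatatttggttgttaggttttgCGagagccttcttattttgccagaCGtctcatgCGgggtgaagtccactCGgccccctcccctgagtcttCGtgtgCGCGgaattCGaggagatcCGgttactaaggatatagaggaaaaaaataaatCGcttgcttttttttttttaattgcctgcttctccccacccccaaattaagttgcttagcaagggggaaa
The TGFB2 window held 14 CpGs and the SMAD7 window 13, against a median of 14 over 27305 RefSeq windows of the same length. The other members ranged from 8 CpGs at TGFBR2 and 10 at TGFB3 to 44 at SMAD3, 45 at SMAD2 and 52 at SKIL. Methylation was not measured in these data, so these counts give the sequence only. They cover the windows and do not describe CpGs near any other start of a gene. The SMAD-binding letters CAGAC, searched on both strands, occurred in the windows of 6 of 10 members (TGFB2, TGFB3, TGFBR1, SMAD3, SMAD7 and SKIL) and in 45.0% of all windows. The TGFBR1 window, which starts at base 99104863, lies inside the gene as it is positioned further on. The CAGAC nearest to the TGFB2 start began 53 bases before it, and the CAGAC matches at SMAD7 began 217 and 128 bases before the start. The palindrome GTCTAGAC was in 0 of the 10 windows and 0.201% of all. Only these windows were searched, and sequence near any other start of SMAD7 or of the other members was not. Absence from a window therefore does not show that a gene's promoter lacks a motif. TATAAA, the TATA box letters, was found at TGFB2 alone among the 10, 29 bases before the start, and in 12.0% of all windows. TGACGTCA was found at SKIL alone (1.98% of all windows), and TGACTCA at 0 of 10 (4.92%). None of these motifs contains another.

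Among the ligands, TGFB2 was much higher in both knockdowns, TGFB1 was lower in both, and TGFB3 did not separate the groups. TGFB2 (chromosome 1, 218345336 to 218444619, GRCh38) had 33.4, 33.2 and 33.9 CPM with DNMT1 knockdown, 17.3, 18.0 and 17.8 CPM with DNMT3B knockdown, and 1.88, 2.12 and 1.28 CPM in Control. The 3 groups did not overlap, with DNMT1 knockdown highest and Control lowest. The log2 fold change was 4.26 ± 0.09 (standard error) for DNMT1 knockdown and 3.34 ± 0.1 for DNMT3B knockdown, and in the direct comparison TGFB2 was 1.89-fold higher in DNMT1 knockdown. TGFB1 (chromosome 19, 41330323 to 41353922), the ligand with the highest level per kb of exon in all 3 groups, had 90.0, 88.2 and 92.2 CPM with DNMT1 knockdown, 60.6, 57.9 and 63.5 CPM with DNMT3B knockdown, and 107, 107 and 112 CPM in Control. Control was highest and DNMT3B knockdown lowest, again without overlap. Its log2 fold change was -0.27 ± 0.038 with DNMT1 knockdown and -0.84 ± 0.04 with DNMT3B knockdown. TGFB3 (chromosome 14, 75958097 to 75983011), the third ligand, averaged 4.98 ± 0.529 CPM with DNMT1 knockdown, 5.28 ± 1.07 CPM with DNMT3B knockdown and 5.26 ± 0.529 CPM in Control, and its libraries overlapped in every comparison.

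Per kb of exon, TGFB2 made up 16.2 ± 0.173% of the 3 ligands' summed level with DNMT1 knockdown and 12.8 ± 0.404% with DNMT3B knockdown, against 0.843 ± 0.219% in Control (n = 3 each). TGFB1 made up 79.5 ± 0.404% with DNMT1 knockdown and 80.2 ± 1.96% with DNMT3B knockdown, against 94.6 ± 0.751% in Control. TGFB2 thus stood above TGFB3 per kb in both knockdowns and below it in Control. The summed ligand level was 40.3 to 41.9 CPM per kb with DNMT1 knockdown, 26.8 to 28.0 with DNMT3B knockdown and 40.8 to 42.4 in Control, so that DNMT1 knockdown and Control overlapped and DNMT3B knockdown lay below both. Exon lengths were 2.77 kb for TGFB1, 5.05 kb for TGFB2 and 2.78 kb for TGFB3 in the GENCODE basic annotation. The annotation used in counting may differ from it, so levels per kb are approximate between genes.

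**Figure D1:**
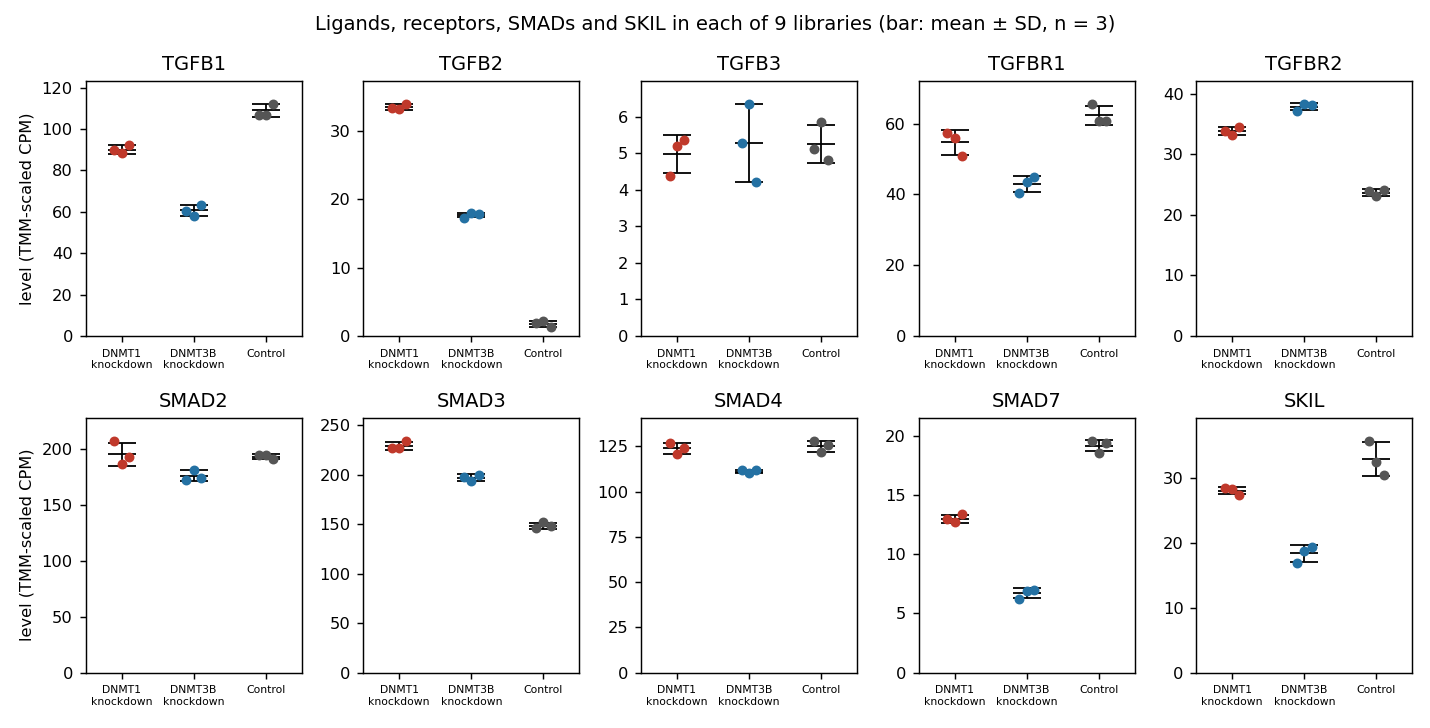
TMM-scaled CPM (vertical axis, from 0) of the 10 genes in each library, by group on the horizontal axis; points are libraries and bars the mean ± SD (n = 3). TGFB2 is near the floor of its panel in Control (1.28 to 2.12 CPM), TGFB3 overlaps across the groups, and SMAD7 is lowest with DNMT3B knockdown (6.26 to 7.01 CPM).

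Some members share their position with other genes, depending on the annotation. In GENCODE v29, TGFB1 overlaps the opposite-strand genes HNRNPUL1, CCDC97 and TMEM91, and TGFB3 overlaps IFT43. By the RefSeq positions, from which those printed here came, none of these genes overlaps its member. Neither the annotation nor the use of strand in counting is given in the sources used here. Reads of TGFB1 and TGFB3 therefore cannot be told apart from those of such partners with certainty. With DNMT3B knockdown the log2 fold changes of HNRNPUL1, CCDC97 and TMEM91 were 0.04, -0.06 and -0.24, none past the test (edgeR adjusted p = 0.334, 0.22 and 0.0663). With DNMT1 knockdown CCDC97 fell (-0.23, adjusted p = 2.68e-05). IFT43 fell with DNMT3B knockdown (log2 fold change -0.47, adjusted p = 7.42e-06), where TGFB3 stood at -0.02. TGFB2-AS1, which overlaps the start of TGFB2 on the genome, had 21 counts over the DNMT1 knockdown libraries, 22 over DNMT3B knockdown and 25 over Control, too few for the test.

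The receptors differed in opposite directions, TGFBR2 being higher and TGFBR1 lower in both knockdowns. TGFBR2 (chromosome 3, 30606356 to 30694142), the receptor that binds ligand first, had 33.8, 33.2 and 34.5 CPM with DNMT1 knockdown, 37.2, 38.3 and 38.2 CPM with DNMT3B knockdown, and 23.9, 23.1 and 24.1 CPM in Control. All 3 groups were apart, with a log2 fold change of 0.51 ± 0.049 for DNMT1 knockdown and 0.68 ± 0.048 for DNMT3B knockdown. TGFBR1 (chromosome 9, 99103647 to 99154192), the kinase that activates SMAD2 and SMAD3, had 57.4, 55.9 and 50.8 CPM with DNMT1 knockdown, 40.5, 43.5 and 45.0 CPM with DNMT3B knockdown, and 65.5, 60.8 and 60.8 CPM in Control. Its log2 fold change was -0.19 ± 0.047 for DNMT1 knockdown and -0.54 ± 0.049 for DNMT3B knockdown, again without overlap. Per kb of exon TGFBR1 stood at 7.68 to 8.68 CPM with DNMT1 knockdown, 6.13 to 6.8 with DNMT3B knockdown and 9.19 to 9.91 in Control. TGFBR2 stood at 7.05 to 7.33, 7.9 to 8.14 and 4.91 to 5.12 CPM per kb in those groups. By these exon lengths TGFBR1 was above TGFBR2 in every library of DNMT1 knockdown and Control, and below it in every library of DNMT3B knockdown. The lengths come from GENCODE v29, and the annotation used in counting is not given. The order of the receptors is therefore uncertain, most of all with DNMT1 knockdown, where their ranges were closest.

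Of the SMADs that carry the signal, SMAD3 was higher in both knockdowns, while SMAD2 stood at 101% of Control with DNMT1 knockdown and 91.0% with DNMT3B knockdown, and SMAD4 at 98.9% and 88.8%. SMAD3 (chromosome 15, 67065602 to 67195169), a receptor-activated SMAD that binds DNA, had 227, 227 and 234 CPM with DNMT1 knockdown, 198, 193 and 200 CPM with DNMT3B knockdown, and 146, 152 and 148 CPM in Control. The groups did not overlap, and the log2 fold change was 0.63 ± 0.033 for DNMT1 knockdown and 0.41 ± 0.034 for DNMT3B knockdown. SMAD2 (chromosome 18, 47808957 to 47930872), the other receptor-activated SMAD, averaged 195 ± 10.3 CPM with DNMT1 knockdown, 176 ± 4.64 CPM with DNMT3B knockdown and 193 ± 2.03 CPM in Control. SMAD4 (chromosome 18, 51030213 to 51085042), their shared partner, averaged 124 ± 2.99, 111 ± 0.862 and 125 ± 3.07 CPM in those groups. For both genes DNMT1 knockdown overlapped Control and DNMT3B knockdown lay below Control in every library.

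The inhibitors SMAD7 and SKIL were lower in both knockdowns, and lowest with DNMT3B knockdown. SMAD7 (chromosome 18, 48919853 to 48950965), whose start region is printed above, had 13.0, 12.7 and 13.4 CPM with DNMT1 knockdown, 6.26, 6.89 and 7.01 CPM with DNMT3B knockdown, and 19.6, 18.6 and 19.4 CPM in Control. That is 68.0% of Control with DNMT1 knockdown and 35.0% with DNMT3B knockdown, with log2 fold changes of -0.56 ± 0.063 and -1.52 ± 0.073 and no overlap among the groups. SKIL (chromosome 3, 170357715 to 170396849) had 28.4, 28.3 and 27.4 CPM with DNMT1 knockdown, 16.9, 18.8 and 19.4 CPM with DNMT3B knockdown, and 35.7, 32.5 and 30.5 CPM in Control. Its log2 fold changes were -0.23 ± 0.057 and -0.84 ± 0.062, and its groups were apart too.

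As a count, 3 members were higher and 4 lower past the edgeR threshold with DNMT1 knockdown, and 3 were higher and 6 lower with DNMT3B knockdown. Over all 16660 tested genes 41.8% were called with DNMT1 knockdown and 47.7% with DNMT3B knockdown. Libraries did not overlap between the groups for 7 members with DNMT1 knockdown and 9 with DNMT3B knockdown, beside 49.4% and 54.1% of all genes. The median log2 fold change of the 10 was -0.05 and -0.15, against -0.002 and 0.002 over all genes, and the median absolute value was 0.25 and 0.61, against 0.147 and 0.17. Between the knockdowns, 8 members were higher and 1 lower with DNMT1 than with DNMT3B knockdown, where 45.2% of all genes were called and 52.2% did not overlap. Of the 10, TGFBR2 was the 1 member lower in DNMT1 than in DNMT3B knockdown (log2 fold change -0.16 ± 0.047), and the widest gaps were at SMAD7 (0.96 ± 0.08) and TGFB2 (0.92 ± 0.062). Since the choice of members used these contrasts, nothing further is read from the counts.

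**Figure D2:**
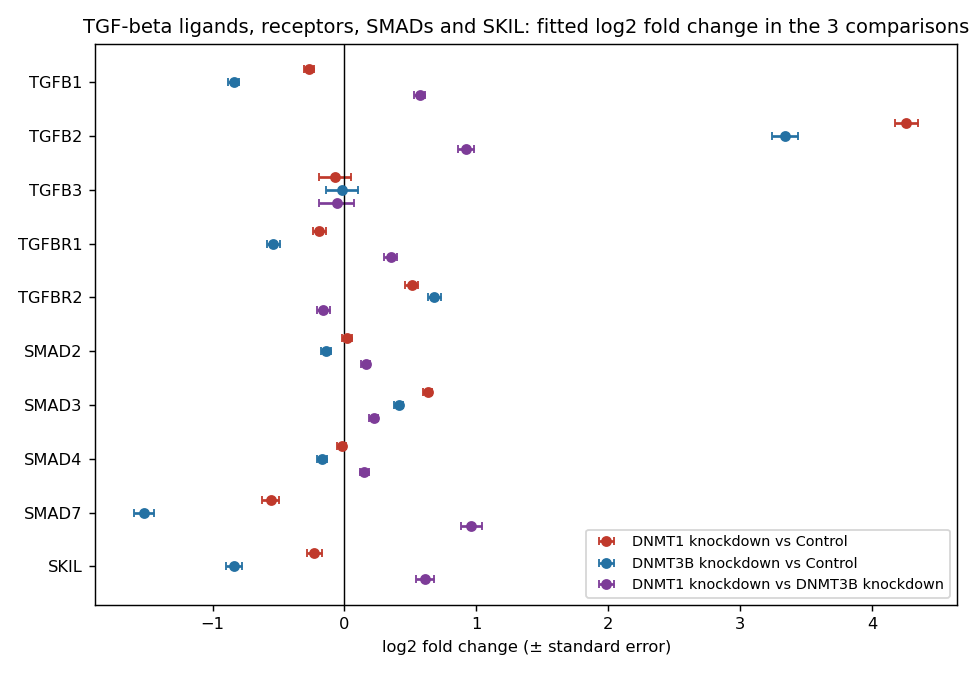
Fitted log2 fold change (horizontal axis) with its standard error for the 10 genes in the 3 comparisons. TGFB2 lies far to the right of all others against Control (4.26 and 3.34), and SMAD7, SKIL and TGFB1 lie farthest to the left with DNMT3B knockdown (-1.52, -0.84 and -0.84).

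Far beyond TGFB2 on chromosome 1, a pair of genes rose with both knockdowns, while the tested genes nearest to it did not pass the test. Within 1.5 Mb of TGFB2 lay 16 genes of the table, of which 6 were tested. This window was chosen knowing that genes close by had large changes. With DNMT1 knockdown 3 of the 6 rose and 0 fell, and with DNMT3B knockdown 2 rose and 0 fell, where 21.0% and 23.1% of all genes were called higher. LYPLAL1-AS1 and ZC3H11B, at 13 and 26 counts in all of Control, passed the low-count filter only through the knockdown libraries. Nothing is therefore read from the number of called neighbours, and the values of both genes are a description without p-values. LYPLAL1-AS1 (219435158 to 219557324), a noncoding RNA 990.5 kb beyond the end of TGFB2, averaged 5.32 ± 0.192 CPM with DNMT1 knockdown and 2.51 ± 0.167 CPM with DNMT3B knockdown, against 0.143 ± 0.0213 CPM in Control. Its log2 fold changes were 5.18 and 4.09. ZC3H11B (219608012 to 219613105), 1163.4 kb beyond, averaged 7.44 ± 0.326 CPM with DNMT1 knockdown and 3.0 ± 0.348 CPM with DNMT3B knockdown, against 0.274 ± 0.135 CPM in Control (log2 fold change 4.69 and 3.40). LYPLAL1-AS1 is an antisense RNA that overlaps LYPLAL1, and ZC3H11B closely resembles ZC3H11A in sequence, which leaves both values uncertain.

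LYPLAL1, a lysophospholipase-like gene 729.3 kb beyond TGFB2, rose with DNMT1 knockdown (log2 fold change 0.35, adjusted p = 9.9e-05) and was at 0.15 with DNMT3B knockdown (adjusted p = 0.0717). RRP15, a ribosome biogenesis gene that ends 7.4 kb before TGFB2, had 35.7 ± 1.57 CPM with DNMT1 knockdown, 34.5 ± 2.11 CPM with DNMT3B knockdown and 35.9 ± 0.401 CPM in Control. RRP15, GPATCH2 and SPATA17 did not pass the test in any comparison. Directly between the knockdowns, LYPLAL1-AS1 (1.09), ZC3H11B (1.29) and LYPLAL1 (0.20) were higher with DNMT1 knockdown (adjusted p = 0.0214 for LYPLAL1). The LYPLAL1 difference was lost under DESeq2 (adjusted p = 0.055), without DNMT1 knockdown replicate 1 (0.11) and without DNMT3B knockdown replicate 1 (0.2).

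**Figure D3:**
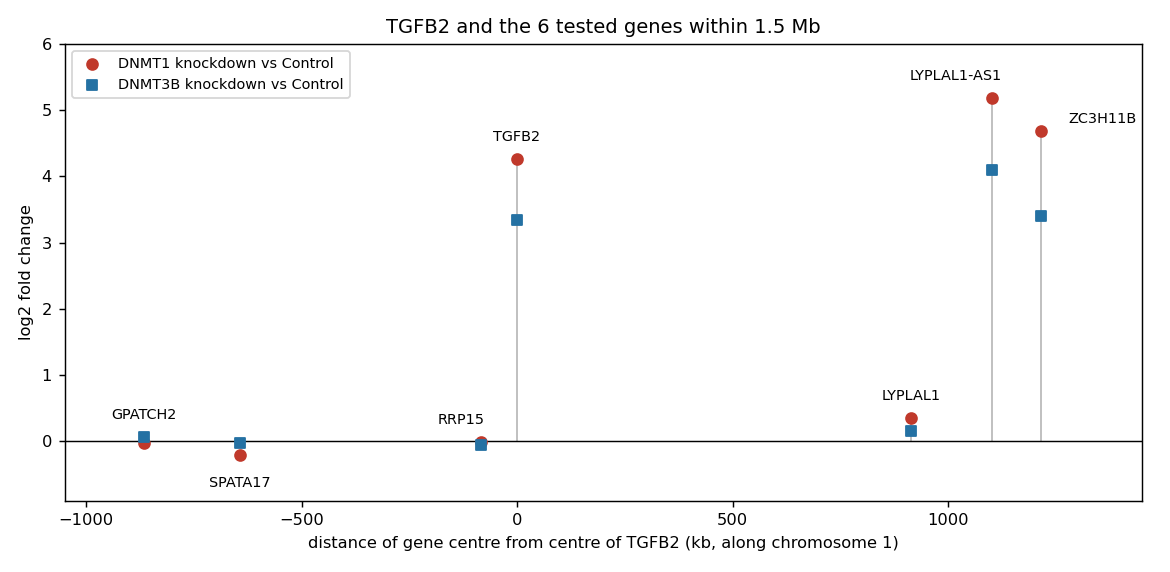
Log2 fold change against Control (vertical axis) of TGFB2 and the 6 tested genes within 1.5 Mb, by the distance of each gene's centre from that of TGFB2 in kb. TGFB2, LYPLAL1-AS1 and ZC3H11B stand at 3.34 or more in both knockdowns, and GPATCH2, SPATA17, RRP15 and LYPLAL1 at 0.35 or less.

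The genes whose levels ran most like TGFB2 over the 9 libraries included both of these neighbours. Likeness was the Euclidean distance of the 9 log2 values, each centred on its Control mean, among 13776 genes that reached 2 CPM in one group or more. EHF (an epithelial ETS factor, distance 0.797), LYPLAL1-AS1 (0.832), ZC3H11B (1.12) and AOAH (1.52) were nearest. AOAH had 165 counts with DNMT1 knockdown, 50 with DNMT3B knockdown and 2 in Control. The nearest to SMAD7 were SAMD11 (0.509), STOX1 (0.542), SERTAD4 (0.566), WWC3 (0.646) and LOC107985728 (0.775). The libraries are shared by all these genes, and the distances are a description.

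Of 19 listed genes that store and free the latent ligand, 15 were tested. With DNMT1 knockdown 5 rose and 2 fell, where 21.0% of all genes were called higher and 20.8% lower, and the list's median log2 fold change was 0.06. With DNMT3B knockdown 3 rose and 10 fell, where 23.1% were called higher and 24.6% lower, and the median was -0.25. LRRC32 is counted as risen with DNMT3B knockdown (47 counts, against 32 in Control) and as lower in the direct comparison below. It passed the low-count filter only through the DNMT3B knockdown libraries, so its calls are a description only. ITGB8, an integrin chain that helps to free TGF-beta, rose to 21.1 ± 0.304 CPM with DNMT1 knockdown and fell to 8.5 ± 0.0441 CPM with DNMT3B knockdown, against 15.8 ± 0.379 CPM in Control (adjusted p = 4.7e-07 and 3.33e-12). Its partner ITGAV fell with DNMT3B knockdown (log2 fold change -0.52, adjusted p = 8.95e-12) and by less with DNMT1 knockdown (-0.12, adjusted p = 0.0145). The DNMT1 knockdown call was lost without Control replicate 3 (adjusted p = 0.0555) or DNMT1 knockdown replicate 3 (adjusted p = 0.162).

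ITGB5, another ITGAV partner, rose with DNMT1 knockdown (0.36, adjusted p = 1.72e-09) and fell with DNMT3B knockdown (-0.46, adjusted p = 2.34e-11). MMP14, a membrane protease, fell with DNMT3B knockdown to 18.2 ± 0.325 CPM, against 30.3 ± 2.33 CPM in Control (-0.74, adjusted p = 1.79e-11), as did the integrin chain ITGB1 (-0.39, adjusted p = 5.81e-11). LTBP3, a latent TGF-beta binding protein, rose with DNMT1 knockdown (0.41, adjusted p = 1.51e-10). In the direct comparison 10 of the 15 were higher and 2 lower with DNMT1 than with DNMT3B knockdown, where 24.3% of all genes were called higher and 20.9% lower. The smallest adjusted p there belonged to ITGB5 (0.81), ITGB8 (1.31) and LTBP3 (0.52), at 2.74e-17, 2.28e-16 and 8.03e-13. Without DNMT1 knockdown replicate 3 the number called with DNMT1 knockdown against Control was 3 in place of 7.

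Genes that assist, inhibit or turn over the receptors were called in both directions. With DNMT1 knockdown 5 of 19 rose and 6 fell, with DNMT3B knockdown 4 rose and 5 fell, where 41.8% and 47.7% of all genes were called in either direction, and the median log2 fold changes were -0.02 and -0.01. The DNMT3B knockdown count is near that background. SMURF2, a ubiquitin ligase that SMAD7 brings to the receptor, fell to 351 ± 11.5 CPM with DNMT1 knockdown and 338 ± 9.02 CPM with DNMT3B knockdown, against 428 ± 3.66 CPM in Control (adjusted p = 2.68e-08 and 5.23e-10). TGFBR3, the ligand-presenting co-receptor, fell too (-0.24 and -0.61, adjusted p = 0.0011 and 1.22e-09). NEDD4L, another ubiquitin ligase, rose in both (0.35 and 0.40, adjusted p = 1.32e-07 and 6.84e-09). ACVRL1, a type I receptor best known in endothelium, had 1.22 ± 0.292 CPM with DNMT1 knockdown and 1.25 ± 0.118 CPM with DNMT3B knockdown, against 0.349 ± 0.0311 CPM in Control (1.80 and 1.83). At 32 counts in all of Control, ACVRL1 passed the low-count filter only through the knockdown libraries, so no p-value is given. It is among the genes counted above as risen in both. Beside it, the summed endothelial markers were 4.09 to 5.24 CPM with DNMT1 knockdown, 5.82 to 6.79 with DNMT3B knockdown and 4.86 to 5.55 in Control, with 4 of 6 under 1 CPM in each group, and their part in the result was not tested. BAMBI, a decoy receptor without a kinase domain, rose with DNMT1 knockdown (0.55, adjusted p = 4.1e-07), stood at -0.01 with DNMT3B knockdown, and differed directly by 0.56 (adjusted p = 5.33e-07). ZFYVE9, an endosomal anchor for SMAD2 and SMAD3, fell with DNMT3B knockdown (-0.25, adjusted p = 1.01e-05). USP15, a deubiquitinase, and STRAP, a receptor-binding inhibitor, were lower in DNMT1 knockdown when the knockdowns were compared (-0.22 and -0.20, adjusted p = 2.39e-05 and 3.21e-05).

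Among nuclear partners of the SMADs and their inhibitors, SMAD6 had the smallest adjusted p between the knockdowns. SMAD6, an inhibitory SMAD that acts mainly on the BMP branch, rose to 22.0 ± 0.802 CPM with DNMT1 knockdown and fell to 7.21 ± 0.274 CPM with DNMT3B knockdown, against 12.4 ± 0.591 CPM in Control (0.83 and -0.79, adjusted p = 1.67e-12 and 7.23e-10). The direct difference was 1.61 (adjusted p = 7.85e-18). EP300, a coactivating acetyltransferase, rose in both (0.67 and 0.44, adjusted p = 9.18e-15 and 2.13e-10). TGIF1, a corepressor, rose with DNMT1 knockdown (0.15) and fell with DNMT3B knockdown (-0.24), with a direct difference of 0.39 (adjusted p = 2.42e-11). With DNMT3B knockdown the antiproliferative TOB1 (0.29) and the acetyltransferase CREBBP (0.18) rose, and PPM1A, a phosphatase for SMAD2 and SMAD3, fell (-0.28; adjusted p = 6.85e-08, 8.74e-05 and 1.75e-06). Compared directly, TOB1 was lower in DNMT1 knockdown (-0.22, adjusted p = 6.04e-06). Of 14 tested, 4 rose and 2 fell with DNMT1 knockdown, where 41.8% of all genes were called, and 7 rose and 5 fell with DNMT3B knockdown, where 47.7% were. The DNMT1 knockdown count is near the background.

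In the activin and nodal arm, which also signals through SMAD2 and SMAD3, 10 of 18 listed genes were tested and the others were too low. With DNMT1 knockdown 0 rose and 2 fell, where 20.8% of all genes were called lower, and with DNMT3B knockdown 0 rose and 5 fell, where 24.6% were. Called in either direction were 41.8% and 47.7% of all genes, and the DNMT3B knockdown count is near that background. INHBB, among the 2 fallen with DNMT1 knockdown, had 26 counts there. It passed the low-count filter through Control and DNMT3B knockdown, so its call is a description only. ACVR2B, an activin type II receptor, fell to 111 ± 1.15 CPM with DNMT1 knockdown and 88.6 ± 1.06 CPM with DNMT3B knockdown, against 129 ± 3.87 CPM in Control (-0.22 and -0.55, adjusted p = 5.13e-06 and 4.03e-14), and the direct difference was 0.33 (adjusted p = 7.27e-09). With DNMT3B knockdown the ligand GDF11 (-0.24), the receptors ACVR2A (-0.18) and ACVR1C (-0.37) and the activin-binding FSTL3 (-0.16) fell (adjusted p = 0.00187, 0.0086, 0.021 and 0.0417). The FSTL3 call was lost under DESeq2 (adjusted p = 0.126), with the replicate block (0.0514) and without any 1 of the DNMT3B knockdown libraries (0.0647 to 0.134). The ACVR1C call was lost under DESeq2 (0.0735), without Control replicate 2 (0.0725) and without DNMT3B knockdown replicate 2 (0.117), and the ACVR2A call without Control replicate 3 (0.0521). In the direct comparison FSTL3 was higher (0.26, adjusted p = 0.00183) and the type I receptor ACVR1B lower (-0.15, adjusted p = 0.00304) with DNMT1 knockdown.

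Known TGF-beta target genes were called in both directions, with more higher than lower calls against Control. Of 47 listed, 38 were tested. With DNMT1 knockdown 15 rose and 7 fell, where 21.0% of all genes were called higher and 20.8% lower. With DNMT3B knockdown 18 rose and 6 fell, where 23.1% were called higher and 24.6% lower. Called in either direction were 41.8% and 47.7% of all genes. The list is not sorted by whether TGF-beta raises or lowers each gene, so no direction of the pathway is read from these counts. The list's median log2 fold changes were 0.11 and 0.17. SPARC, counted as risen in both knockdowns, had 16 counts in all of Control and passed the low-count filter only through the knockdown libraries. PTHLH, counted as fallen with DNMT1 knockdown, had 27 counts there and passed the filter through Control and DNMT3B knockdown. The calls of SPARC and PTHLH are therefore a description only. ADAM19, a membrane metalloprotease, rose to 226 ± 4.53 CPM with DNMT1 knockdown and 88.7 ± 1.98 CPM with DNMT3B knockdown, against 78.6 ± 0.779 CPM in Control (1.53 and 0.18, adjusted p = 1.69e-26 and 0.000172), and the direct difference was 1.35 (adjusted p = 3.54e-24). CCN2, connective tissue growth factor, fell to 4.12 ± 0.249 CPM with DNMT1 knockdown, against 9.34 ± 0.451 CPM in Control (-1.18, adjusted p = 4.96e-12), and stood at -0.08 with DNMT3B knockdown. CDKN1A, the p21 inhibitor of cyclin-dependent kinases that p53 also controls, fell with DNMT1 knockdown (-0.16) and rose with DNMT3B knockdown (0.79), with a direct difference of -0.96 (adjusted p = 3.15e-19).

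ANGPTL4, a secreted regulator of lipoprotein lipase, rose to 22.5 ± 1.95 CPM with DNMT1 knockdown and 22.5 ± 0.5 CPM with DNMT3B knockdown, against 12.2 ± 0.526 CPM in Control (adjusted p = 1.38e-12 and 1.28e-12). KLF10, a zinc finger factor that TGF-beta induces early, rose with DNMT1 knockdown (0.54, adjusted p = 5.34e-14) and stood at 0.07 with DNMT3B knockdown. BHLHE40, a repressor, rose in both (0.18 and 0.46, adjusted p = 0.000104 and 1.57e-12). ID1, which TGF-beta and BMP both regulate, rose with DNMT1 knockdown (0.37) and fell with DNMT3B knockdown (-0.31), with a direct difference of 0.68 (adjusted p = 8.98e-16). In the direct comparison 11 of the 38 were higher and 19 lower with DNMT1 than with DNMT3B knockdown, where 24.3% and 20.9% of all genes were called. COL1A1 and ACTA2 stand in both the target and the fibroblast marker lists, and the summed fibroblast markers given above were highest with DNMT3B knockdown; their part in the target counts was not tested. Leukocyte markers summed to 19.3 to 20.5 CPM with DNMT1 knockdown, 32.1 to 37.0 with DNMT3B knockdown and 19.1 to 20.4 in Control, nearly all of it CD68, while the defining marker PTPRC had 4, 10 and 9 counts in those groups; their part in the counts was not tested either.

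**Figure D4:**
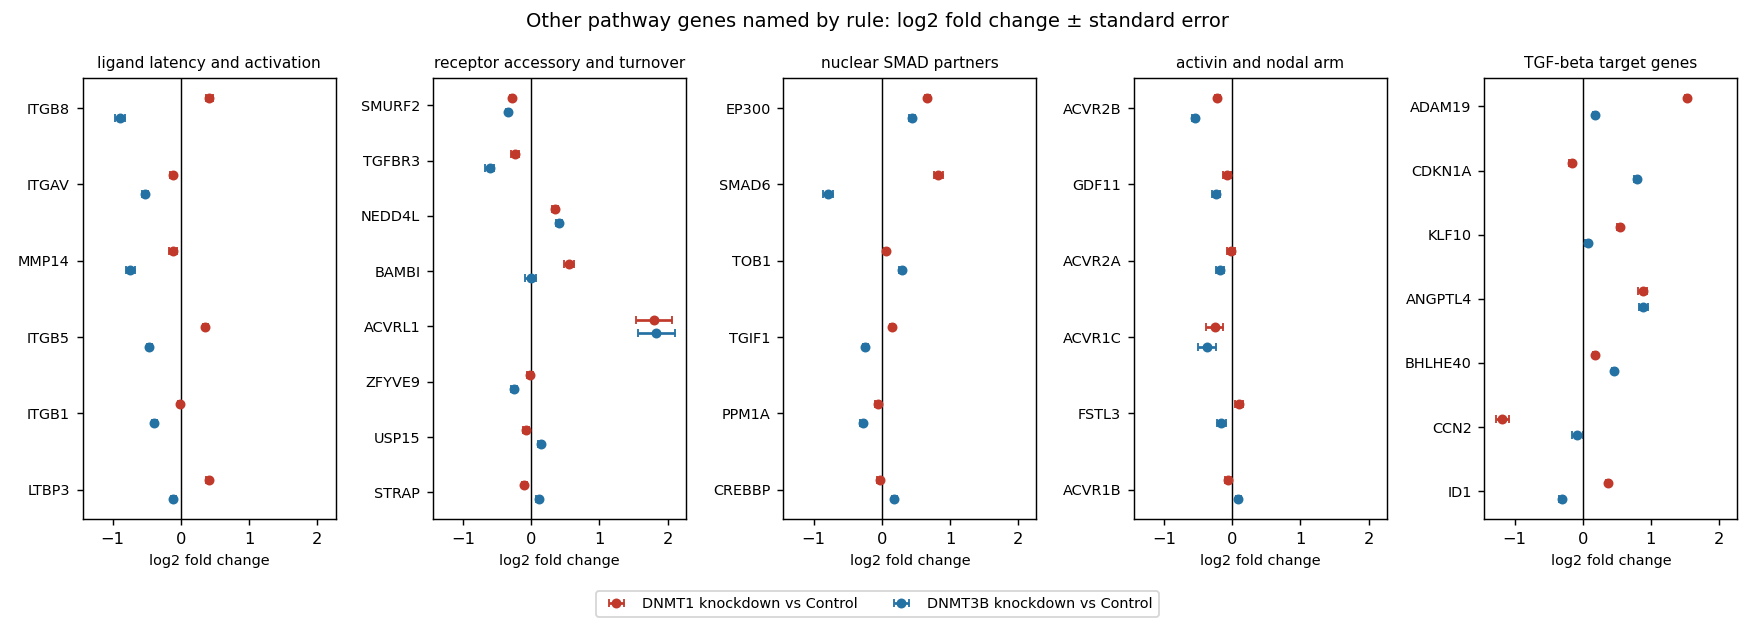
Log2 fold change against Control with its standard error (horizontal axes) for the non-member genes named by rule in 5 lists. ITGB8, ITGB5, SMAD6, TGIF1, CDKN1A and ID1 lie on opposite sides of 0 in the 2 knockdowns. ACVRL1 (1.80 and 1.83) and ANGPTL4 (0.88 and 0.89) lie together, with ACVRL1 at only 0.349 CPM in Control.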

How the data were processed

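RNA left after rRNA depletion was sequenced in 9 libraries, per the labels' protocols. The authors deposited raw counts per gene symbol, neither scaled nor pooled. The submitters' processing notes name GRCh38 (hg38) with STAR, featureCounts and DESeq2. For versions, annotation and strand use, nothing was given in the sources used here. Of 25886 symbols, 3310 had 0 counts throughout, and 16660 passed filterByExpr. These were scaled by TMM and fitted with edgeR 4.0.16 (quasi-likelihood, R 4.3.3) over all 9 libraries, giving 6 residual degrees of freedom, and every adjusted p is from this fit (Benjamini-Hochberg, called below 0.05) unless another tool is named. The members and lists were chosen with earlier results of these data known. Non-member genes were named by rule: per list up to 6 with the smallest adjusted p against Control and up to 3 in the direct comparison, at 1 CPM or more. Likeness used log2(CPM + 0.1). Some genes are not reported here. Positions came from RefSeq (97.5% of symbols), and exon lengths and the overlaps of TGFB1 and TGFB3 from GENCODE v29. Counts of replicate pairs varied beyond sampling noise (chi-square over its degrees of freedom, 1.8 to 3.7). On simulated DNMT1 knockdown counts over 16404 genes, edgeR recovered 68% of 1.25-fold and 92% of 2-fold changes. The simulation gave 179 calls, against 6956 in the data, and used the same spread for all genes, so these rates may not carry over. Alternatives were DESeq2 1.42.0, limma-voom 3.58.1, other scalings, filters and windows, the replicate block, and leaving out each library.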

Additional observations from a re-analysis of the deposited data

How the results depend on the processing

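The log2 fold changes of the 10 members moved, under 17 alternative fits (510 values), by less than the replicate SD of the difference (the log2 SDs of both groups combined). TGFB2, with standard errors of 0.09 and 0.1, ranged from 4.074 to 4.387 with DNMT1 knockdown and 3.155 to 3.475 with DNMT3B knockdown as libraries were left out, lowest without Control replicate 3. Fold changes near 0 changed sign in some of them: TGFB3 in all 3 comparisons, and SMAD2 and SMAD4 with DNMT1 knockdown. Of 2346 alternative values for the other named genes, 42 lost a call, 9 gained one and 0 were reversed; the calls lost also include LTBP3 with DNMT3B knockdown, STRAP against Control, GDF11 and ACVR2A between the knockdowns, and DNMT1 with DNMT3B knockdown. Of 363 alternative counts, 350 stayed within 1.5 times. The activin and nodal count was 1 with DNMT1 knockdown when 1 CPM was asked of 3 libraries, and under DESeq2 it was 3 with DNMT3B knockdown and 4 in the direct comparison. The count of TGFB2 neighbours was 0 in all 3 comparisons within 0.5 Mb, which holds neither LYPLAL1-AS1 nor ZC3H11B. Within 3 Mb it was 14 with DNMT1 knockdown, 10 with DNMT3B knockdown and 9 in the direct comparison. Over all genes 41.8%, 47.7% and 45.2% were called in those comparisons, and nothing is read from the neighbour counts. With each library left out in turn, the ligand latency count with DNMT1 knockdown was 3 to 7. The activin and nodal count was then 3 to 6 with DNMT3B knockdown (3 without Control replicate 3 or DNMT3B knockdown replicate 2) and 4 to 7 in the direct comparison (4 without DNMT3B knockdown replicate 3). The replicate numbers did not pair the libraries (correlation of same-numbered deviations -0.167 to 0.173); with the number as a block 6796, 7789 and 7379 genes were called, against 6956, 7949 and 7534 without it. The cause of these shifts was not tested, apart from the windows. A count of 0 allows up to 0.162 CPM in the shallowest library, counting error only.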

Other observations

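The following genes of these lists fall outside the naming rule and were chosen after their values were seen. FN1, fibronectin, rose in both knockdowns (log2 fold change 0.43 and 0.54, adjusted p = 1.67e-09 and 8.97e-12), as did SNAI1, a repressor of epithelial genes (0.21 and 0.67, adjusted p = 0.0155 and 8.13e-10). Other listed genes differed otherwise: the epithelial cadherin CDH1 rose in both (0.31 and 0.15, adjusted p = 8.85e-09 and 0.000439), ZEB1, another repressor of epithelial genes, fell with DNMT1 knockdown (-0.49, adjusted p = 0.000744), and TAGLN, a smooth muscle actin-binding protein, fell with DNMT3B knockdown (-0.27, adjusted p = 0.0444). VIM, an intermediate filament of mesenchymal cells, stood at 0.765 ± 0.157 CPM with DNMT1 knockdown, 0.806 ± 0.248 CPM with DNMT3B knockdown and 0.761 ± 0.101 CPM in Control. INHBB, a subunit of activin B, had 0.363 ± 0.0985 CPM with DNMT1 knockdown, against 0.942 ± 0.225 CPM in Control. With 26 counts over the DNMT1 knockdown libraries, it passed the low-count filter through Control and DNMT3B knockdown, so no p-value is given. INHBA, the subunit of activin A, was too low to test, with 5 counts over the DNMT1 knockdown libraries, 4 over DNMT3B knockdown and 35 over Control.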
